A study of Mus musculus with 2 samples.

Results

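The 10 genes that make, break down and receive retinoic acid were examined in the list of Isl1 peaks of the early mouse embryo. They are Aldh1a1, Aldh1a2 and Aldh1a3 (synthesis), Cyp26a1, Cyp26b1 and Cyp26c1 (breakdown), and Rara, Rarb, Rarg and Rxra (receptors). A peak was taken as theirs where the deposited list gave it the symbol of one of these genes. By this rule 31 of the 48295 peaks of the list belonged to them, and 9 of the 10 genes had a peak.

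The study mapped by ChIP-seq where the LIM-homeodomain factor Isl1, a regulator of cardiac progenitor cells, lies on the genome. The Isl1 ChIP sample came from the heart region and cardiogenic mesoderm of C57BL/6 mouse embryos collected from E8.25 to E9, with 60 to 80 embryos pooled, fixed in 1% formaldehyde for 15 min and precipitated with 2 to 5 µg of a monoclonal anti-Isl1 antibody. The labels name no mutant allele and no treatment for it. An Input sample of the same stage and strain, with no antibody, has no file of its own and was not analysed here. With 1 sample there was no replicate check and no test between groups. The list gives the position of each peak, its gene and its distance from the transcription start site (TSS), and it gives no height, enrichment or read count, so that the depth behind a peak is unknown. Isl1 marks some cells of this tissue and not others, and a pooled sample cannot tell which cells carried a peak.

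Retinoic acid is made from retinol (vitamin A) by oxidation to retinaldehyde and then by the Aldh1a retinaldehyde dehydrogenases. Cytochromes of the Cyp26 family oxidise it to inactive products, so that synthesis in one place and breakdown in another shape its spread through the embryo. It binds the receptors Rara, Rarb and Rarg, which act on DNA as heterodimers with a retinoid X receptor such as Rxra. In the embryo it is known to limit the heart field on its posterior side and to pattern the inflow region of the heart.

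The sequences at the peak centres are shown first, because they differed little in kind from gene to gene. Each is 200 bases around the midpoint of a peak, on the plus strand of mm9, read 5′ to 3′. The 6 shown are, for 6 of the genes, the peak closest to the TSS among those assigned to the gene, and capitals mark their longest unbroken run of purines (A or G) or pyrimidines (C or T). The last is the Rxra peak over the TSS, where the longest run was of 10 bases, under the 25 bases within 100 bp of the midpoint that were counted as a run.
Aldh1a3 chr7:73655822-73656021: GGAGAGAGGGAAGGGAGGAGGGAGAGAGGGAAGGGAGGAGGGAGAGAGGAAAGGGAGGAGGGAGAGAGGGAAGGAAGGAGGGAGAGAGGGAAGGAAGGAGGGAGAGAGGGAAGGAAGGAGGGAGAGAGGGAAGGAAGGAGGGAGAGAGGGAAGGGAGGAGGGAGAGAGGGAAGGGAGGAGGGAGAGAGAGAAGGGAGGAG
Cyp26b1 chr6:84764590-84764789: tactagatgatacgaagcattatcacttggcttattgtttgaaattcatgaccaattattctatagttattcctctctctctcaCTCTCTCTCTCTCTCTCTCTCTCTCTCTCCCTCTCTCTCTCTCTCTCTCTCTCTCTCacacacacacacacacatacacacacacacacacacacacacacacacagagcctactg
Cyp26c1 chr19:37709932-37710131: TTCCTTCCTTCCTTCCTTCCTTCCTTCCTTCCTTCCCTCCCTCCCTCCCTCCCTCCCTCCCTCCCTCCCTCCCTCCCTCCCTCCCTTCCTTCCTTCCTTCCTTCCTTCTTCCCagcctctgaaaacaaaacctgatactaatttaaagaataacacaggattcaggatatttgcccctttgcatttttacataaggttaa
Rara chr11:98817528-98817727: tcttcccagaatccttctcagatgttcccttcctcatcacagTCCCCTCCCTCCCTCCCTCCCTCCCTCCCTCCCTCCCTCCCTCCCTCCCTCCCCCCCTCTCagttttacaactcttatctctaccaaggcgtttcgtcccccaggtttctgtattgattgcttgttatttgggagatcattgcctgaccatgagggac
Rarg chr15:102098217-102098416: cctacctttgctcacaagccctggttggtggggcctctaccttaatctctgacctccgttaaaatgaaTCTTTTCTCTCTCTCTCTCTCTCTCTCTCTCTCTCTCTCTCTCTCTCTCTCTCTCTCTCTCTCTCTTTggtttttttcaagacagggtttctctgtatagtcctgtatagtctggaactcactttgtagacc
Rxra chr2:27532480-27532679: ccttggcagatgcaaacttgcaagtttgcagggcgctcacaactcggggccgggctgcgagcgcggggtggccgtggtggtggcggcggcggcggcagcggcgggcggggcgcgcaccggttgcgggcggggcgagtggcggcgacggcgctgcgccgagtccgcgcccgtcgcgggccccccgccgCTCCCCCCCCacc

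The other 5 sequences held short repeats of C and T or of A and G, with runs of 57 bases at Cyp26b1 to 200 bases, the whole window, at Aldh1a3. A run of at least 25 bases was present in 29 of the 31 peaks (93.5%, 95% Wilson interval 79.3 to 98.2), beside 94.1% of all peaks of the list. The share was thus near the background. Reads over such repeats in the Input sample were not analysed here, and the part of the repeats in the peaks was not tested. This interval and those that follow cover counting error only, and peaks of 1 gene share its surroundings and are not independent of each other. The longest run in a whole peak had a median of 120.0 bases (range 7 to 486), and the median over all peaks was 108 bases. A repeat of CT or GA of at least 4 units stood near the centre of 15 peaks (48.4%, 32.0 to 65.2), beside 56.1% of all peaks. The letters TAAT, the core of the sites that LIM-homeodomain proteins bind, lay within 100 bp of the midpoint on either strand in 12 of 31 peaks (38.7%, 23.7 to 56.2), beside 35.3% of all peaks. So short a match also occurs by chance, and sequence outside the peaks was not counted. Neither share therefore shows that these letters were enriched in the peaks. The median GC content at the centre was 50.5% (range 38.5 to 80), and 49% over all peaks.

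**Figure D1:**
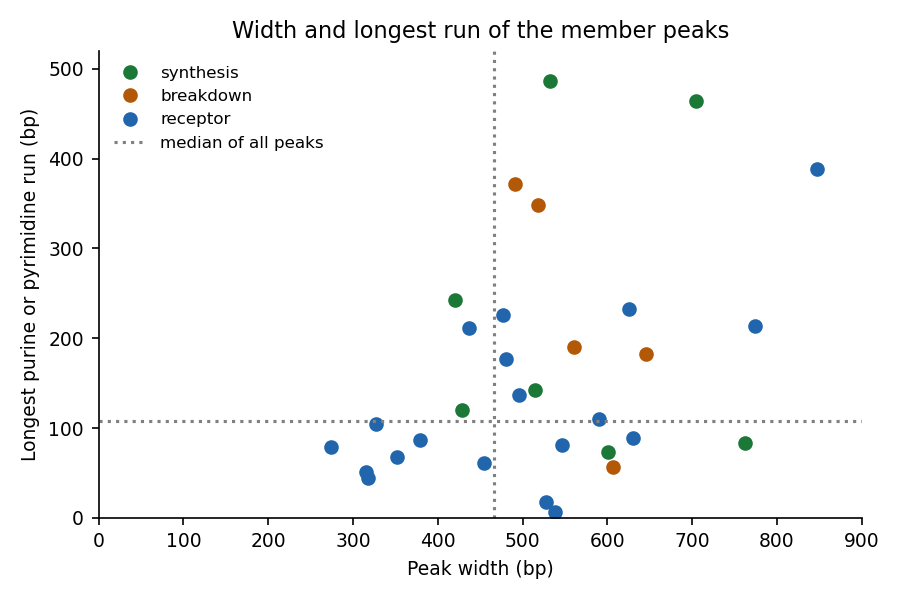
Width of each of the 31 peaks (horizontal axis, bp) against the longest purine or pyrimidine run within it (vertical axis, bp), coloured by the role of the gene, with dotted lines at the medians of all peaks (466 bp and 108 bases). 21 peaks lie to the right of the median width, and the points at the bottom are the Rxra peak over the TSS (18 bases) and the distal Rarb peak (7 bases).

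Among the protein-coding genes present in both GENCODE and RefSeq, 51.2% had an assigned peak, which is the background for the 9 of 10 found here. Synthesis genes held 7 peaks on 2 of 3 genes, breakdown genes 5 peaks on 3 of 3 genes, and receptor genes 19 peaks on 4 of 4 genes. The mean over the 9 genes with a peak was 3.44 peaks, beside a mean of 3.57 and a median of 2 over all protein-coding genes with a peak. Most peaks lay far from the TSS. The distance from the TSS to the peak midpoint had a median of 72.1 kb (range 0.142 to 237), beside 58.8 kb over all peaks, and 21 of 31 peaks lay beyond 50 kb, as did 53.8% of all peaks. Beyond 200 kb lay 4 of 31 peaks, beside 22.4% of all peaks, a small count whose difference from the list was not tested. Of these, the Rarb peaks at −205, 217 and 237 kb lay 37.9, 46.2 and 26.9 kb from the closest GENCODE start of Rarb. Within 10 kb of the TSS lay 3 peaks (9.68%, 3.35 to 24.9), beside 15.9% of all peaks. These 3 belonged to Rara and Rxra, so that 2 of 10 genes had a peak this close, beside 25.4% of protein-coding genes.

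By side, 12 peaks were upstream (38.7%, 23.7 to 56.2) and 19 downstream, and 47.5% of all peaks were upstream. Of the 19 downstream peaks, 5 were Rarb peaks measured from a start that GENCODE lacks. Those 5 lay upstream of every Rarb start in GENCODE, so the count by side depended on the annotation. Apart from Rarb, each gene had all of its peaks on 1 side, but 4 of these genes had only 1 peak and could not differ. Against the GENCODE annotation of mm9, 1 peak overlapped an exon, 13 lay in introns and 17 lay between genes. Of those in genes, 12 were over the gene they were assigned to and 2 over another gene. The median width was 518 bp (range 274 to 847), and 466 bp over all peaks.

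**Figure D2:**
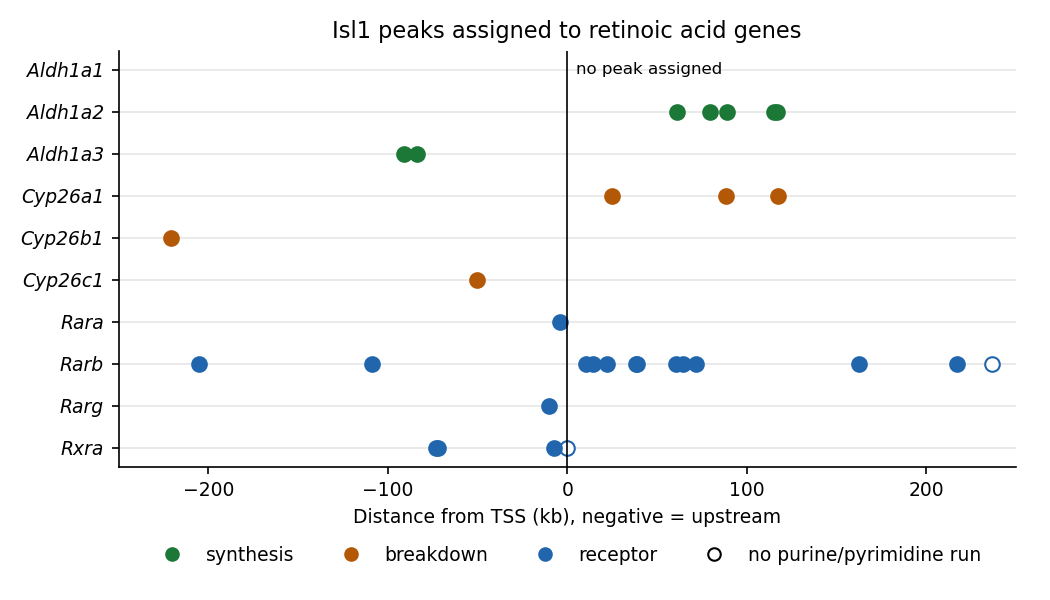
Distance from the TSS to the midpoint of each of the 31 peaks (horizontal axis, kb, negative values upstream) for the 10 genes, coloured by role, with open circles for the 2 peaks without a run. The peaks closest to 0 are those of Rxra and Rara, followed by Rarg at −10.4 kb and Rarb at 10.7 kb, Aldh1a2 and Cyp26a1 have downstream peaks only, and Aldh1a1 has none.

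Of the synthesis genes, Aldh1a2 had the most peaks. Aldh1a2 encodes the main retinaldehyde dehydrogenase of the early embryo, made in the mesoderm next to the posterior heart field. Its 5 peaks were all downstream of the TSS, at 61.0, 79.4, 88.8, 115 and 117 kb. The closest, chr9:71124410-71124838, and the next, chr9:71142777-71143197, lay in introns in the distal part of the gene, which spans 80.5 kb. The other 3 lay past its end, the last pair, chr9:71178777-71179309 and chr9:71180312-71180827, 1003 bp apart. The peak at 115 kb held a run of 486 bases, the longest in the 31 peaks. Of the 5 peaks, 3 were wider than the list's median. No peak near the Aldh1a2 TSS carried its symbol. A peak 14.4 kb upstream of it, chr9:71048991-71049303, was assigned to Gm3458, and 41.3% of protein-coding genes had a peak closer to a TSS than that.

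Aldh1a3, which encodes a dehydrogenase known from the eye and the nasal region, had 2 peaks, both upstream and both between genes. They lay at −83.6 kb (chr7:73655569-73656273, 704 bp wide) and −90.8 kb (chr7:73662830-73663592, 762 bp wide), 6557 bp apart. Both were wider than the list's median, and around the gene an interval of 342 kb, which includes the gene itself, held no peak. A closer nearest peak was found for 92.2% of protein-coding genes. The first held a purine run of 464 bases that filled its 200-base centre. The second held 9 TAAT matches over its length, counted on both strands, and 2 within 100 bp of its midpoint. Counts over whole peaks were not set against all peaks of the list.

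Aldh1a1, a dehydrogenase of the dorsal retina and several adult tissues, was the gene without a peak. The interval of 182 kb around it held none, and its nearest peak, chr19:20601994-20602465, lay 74.2 kb upstream and was assigned to C730002L08Rik. For 89.7% of protein-coding genes the nearest peak was closer. Counted by the closest TSS of a protein-coding gene, 3 peaks would go to Aldh1a1, of which 2 were deposited under E030003E18Rik and 1 under C730002L08Rik. The count of 0 thus depended on the annotation used. Its close relative Aldh1a7 carried 2 peaks, at 17.2 and −3.6 kb.

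The breakdown genes had their peaks away from the gene body. Cyp26a1 and Cyp26c1 lie 4.41 kb apart on chromosome 19, and an interval of 86.6 kb around both held no peak. A nearest peak closer than that of Cyp26a1 was found for 57.8% of protein-coding genes, and closer than that of Cyp26c1 for 70.9%. Cyp26a1, the hydroxylase that is itself switched on by retinoic acid, had 3 peaks, downstream at 24.9 kb (chr19:37796923-37797414), 88.4 kb (chr19:37860377-37861023) and 118 kb (chr19:37889627-37890145). They held runs of 372, 182 and 348 bases, each above the list's median of 108. Cyp26c1 had 1 peak, upstream at −50.1 kb (chr19:37709751-37710312), within an intron of Exoc6, a gene of the exocyst complex of vesicle secretion. The pair of genes was thus flanked by 1 peak on the Cyp26c1 side and 3 on the Cyp26a1 side. The peak nearest to the Cyp26c1 TSS was not the one deposited under its name upstream but that of Cyp26a1, 37.1 kb downstream.

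Cyp26b1, the hydroxylase of the hindbrain, limb bud and gonad, had 1 peak, at −221 kb (chr6:84764386-84764993). It lay in an intron of Exoc6b, a relative of Exoc6, and by the closest protein-coding TSS of GENCODE it would go to Exoc6b. Conversely, 8 peaks had Cyp26b1 as the closest protein-coding TSS, and none of them was deposited under its name. The nearest, chr6:84428608-84428994, was deposited under Gm10445 and lay 109.8 kb downstream of the TSS. An interval of 335 kb around Cyp26b1 held no peak, and 96.0% of protein-coding genes had a closer one.

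**Figure D3:**
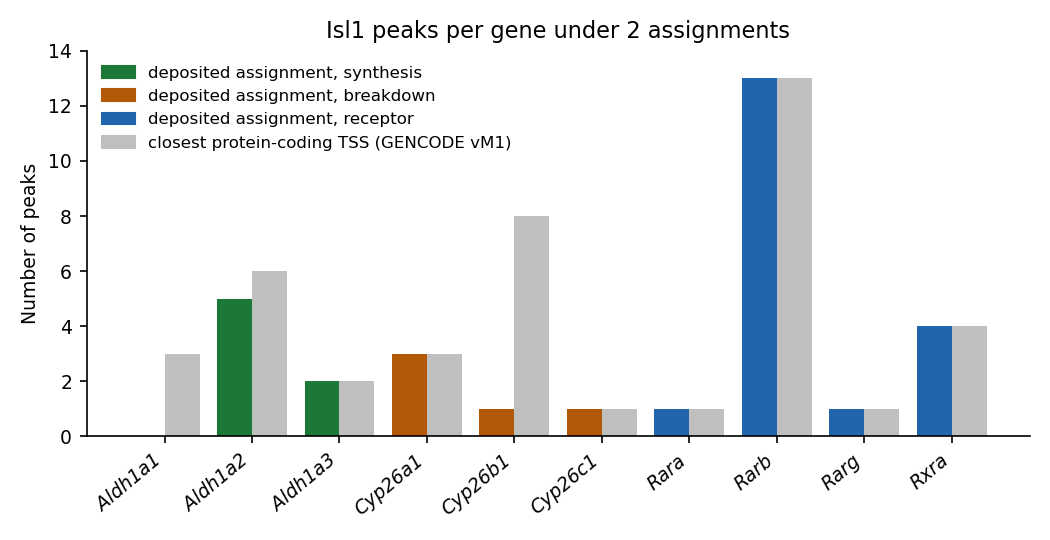
Number of peaks for each of the 10 genes as deposited (coloured bars) and by whichever GENCODE vM1 coding gene starts closest (grey bars). The 2 counts differ for Aldh1a1 (0 and 3), Aldh1a2 (5 and 6) and Cyp26b1 (1 and 8).

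The receptor genes held both the closest peak and the most peaks. Rxra encodes the common partner of the 3 retinoic acid receptors. It had 4 peaks, all upstream, at −0.142, −7.57, −72.1 and −73.0 kb. The first (chr2:27532315-27532843) lay over the TSS and touched an exon, with a GC content of 80% at its centre and no run. In the whole list, 1245 peaks (2.58%) lay within 1 kb of a TSS. Of these, 614 (49.3%, 46.5 to 52.1) held no run, and those without a run had a median GC content of 82.5%. Over the whole list, 2858 peaks held no run. The second Rxra peak, chr2:27524902-27525398, held a run of 137 bases. The other two, chr2:27460216-27460990 and chr2:27459561-27459876, stood 340 bp apart. Only 1.6% of protein-coding genes had a peak closer to a TSS than Rxra.

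Rara, the most widely made of the 3 retinoic acid receptors, had 1 peak at −4.16 kb (chr11:98817400-98817854, 454 bp), upstream of the TSS used in the list and in an intron of longer Rara transcripts of GENCODE. Its centre was a repeat of TCCC units with a run of 61 bases. Rarg, a receptor of skeletal and epidermal precursors, had 1 peak at −10.4 kb (chr15:102098140-102098492, 352 bp), between genes, over a CT repeat within a run of 68 bases. This peak stood just outside the 10-kb limit. The single peaks of Rara and Rarg were both narrower than the list's median of 466 bp.

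Rarb, whose transcription is a classic response to retinoic acid, carried 13 of the 31 peaks, a count that 2.48% of protein-coding genes reached. It is also a long gene, 388.0 kb in GENCODE on the minus strand of chromosome 14 (chr14:17263356-17651381). Its peaks spanned 540.5 kb, with gaps between neighbours of 3.95 to 119 kb. Of the 13, 8 lay in introns of Rarb and 5 between genes beyond its annotated upstream end. The list measured them from 2 start sites. The distances of the 8 intronic peaks gave a TSS at 17407990, next to the GENCODE start at 17407986. Those of the 5 intergenic peaks gave a TSS at 17914845, 263 kb beyond the GENCODE gene, so that they were deposited as downstream peaks while lying upstream of every Rarb start in GENCODE.

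From the inner start site, 6 Rarb peaks lay downstream, at 10.7, 14.6, 22.0, 38.1, 60.7 and 71.9 kb, and 2 upstream, at −109 and −205 kb. Of the 13 Rarb peaks, 8 were wider than the list's median. The 3 closest (chr14:17397172-17397446, chr14:17393225-17393543 and chr14:17385844-17386171) were also the narrowest of the gene, at 274, 318 and 327 bp. The widest of the 31 peaks, chr14:17335713-17336560 at 847 bp, lay at 71.9 kb and held a run of 388 bases. The upstream peaks were chr14:17516278-17516868 and chr14:17613229-17613706, the latter 37.9 kb inside the longer GENCODE transcript. From the outer start site the peaks lay at 39.0, 64.7, 162, 217 and 237 kb. The last of these, chr14:17677983-17678521, was the other peak without a run, and its longest run was 7 bases. Its centre was instead another simple repeat, of CA and TA units, with purines and pyrimidines alternating over all 200 bases. In the whole list, a CA or TG repeat of at least 10 units was near the centre of 20.6% of peaks without a run. Of peaks with a run, 11.7% held one.

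Because each peak went to the closest TSS, a gene with distant neighbours collects more of them. To set this aside, each gene was given the stretch of genome closer to its own protein-coding TSSs than to those of other genes, and peaks in it were counted per Mb. Over the 10 stretches, 2168 kb in all, there were 42 peaks, or 19.4 per Mb (exact Poisson interval 14.0 to 26.2), beside 18.9 per Mb for the whole genome. Rarb had 13 peaks in 745 kb, the longest of the 10 stretches, or 17.4 per Mb (9.29 to 29.8). That interval reaches both below and above the genome value. The highest density was that of Aldh1a2, at 37.9 per Mb (13.9 to 82.6, 6 peaks in 158 kb). The next was Rarg, at 34.2 per Mb, which rested on 1 peak in 29.3 kb (0.865 to 190.4). The lowest was Aldh1a3, at 13.0 per Mb (1.57 to 46.8). The interval of each of the 10 genes included the genome value, and the order among them was not resolved at these counts.

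**Figure D4:**
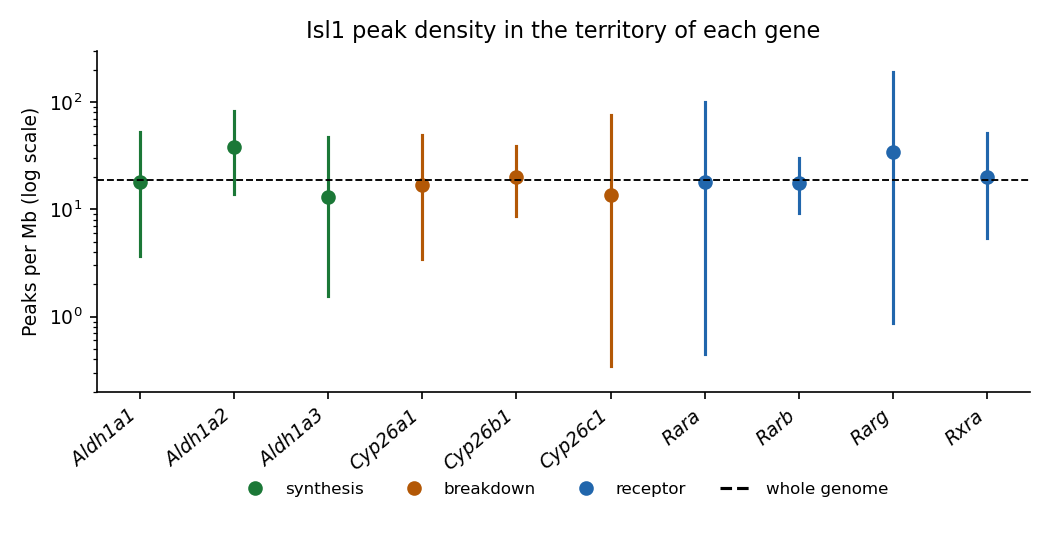
Isl1 peaks per Mb (log scale) in the stretch of genome closest to each gene's protein-coding TSSs. Points are the densities and vertical lines their exact 95% Poisson intervals for counting error; the dashed line is the whole genome at 18.9 per Mb, which every interval crosses.

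Receptor heterodimers are known to bind direct repeats of a hexamer such as AGGTCA. Pairs of hexamers were searched on both strands, allowing A or G at the first base, G or T at the third and C or G at the fifth, with 1, 2 or 5 bases between them. None of the 31 peaks held such a pair within 100 bp of its midpoint (0 of 31, upper Wilson bound 11.0%), and 0.261% of all peaks did. Over whole peaks 2 of 31 held one (6.45%, 1.79 to 20.7), beside 1.37% of all peaks. They were the Aldh1a3 peak at −90.8 kb with a spacing of 2 and the Rarb peak at 237 kb with a spacing of 1. In the RefSeq promoters (GRCm38.p6, 250 bases before to 50 after the start), which cover 9 of the 10 genes, a pair spaced by 5 bases was found in 106 of 32851 sequences (0.323%). Those of Rarb and Cyp26a1 were among them. Neither of these promoters held a peak, but only 2 of the 10 genes had a peak within 10 kb, beside 25.4% of protein-coding genes. The 2 elements are shown with capitals for the hexamers and the location found by matching them to mm9.
Rarb promoter chr14:17408027-17408043, minus strand: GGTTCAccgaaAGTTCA
Cyp26a1 promoter chr19:37772266-37772282, minus strand: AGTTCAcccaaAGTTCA

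The Rarb element lay 53 bases before the start and 10.6 kb from the edge of the nearest peak. That of Cyp26a1 lay 32 bases before the start and 24.6 kb from the nearest peak. A match in letters does not show that a receptor was bound there.

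A wider list of 29 genes of the pathway was read in the same way, and 21 of them had a peak, beside the 51.2% of protein-coding genes given above. This share too was not adjusted for the distance to neighbouring genes. These genes held 142 peaks, of which 14 had no run (9.86%, 5.96 to 15.9), beside 5.92% of all peaks. Of the genes for supply and storage of retinol, Rdh10, which makes the retinaldehyde that Aldh1a2 uses, had 3 peaks, the closest at 98.8 kb. Dhrs3, which turns retinaldehyde back into retinol, had 9, the closest at −18.5 kb. Rbp4, Stra6, Lrat, Adh1 and Adh7 had none, but by the closest protein-coding TSS Stra6, Lrat and Adh7 would have 1 each and Dhrs3 would have 5. Of the carriers inside the cell, Crabp1 had 1 peak and Fabp5 had 3, while Crabp2 had none. Of the partner receptors, Rxrg had 3 peaks and Rxrb none.

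All 6 cofactor genes of the receptors had a peak, beside 51.2% of protein-coding genes. The closest peaks of the coactivator genes Ncoa1 (0.437 kb) and Ncoa2 (0.705 kb) lay within 1 kb of the TSS and held no run, as at Rxra. Nrip1 had 11 peaks, the closest at −47.4 kb. By the closest protein-coding TSS it had 8, or 37.1 per Mb (16.0 to 73.0), an interval that includes the genome value of 18.9. Among the 10 genes known to respond to retinoic acid, 9 had peaks and Cdx1 had none, beside the same 51.2%. The stretch of genome closest to Cdx1 was 15.5 kb long, and that of Nr2f1 1589 kb. Hoxb1, a hindbrain patterning gene with known retinoic acid response elements, had 2 peaks, the closer at 12.2 kb. The orphan receptor genes Nr2f1 and Nr2f2 had 39 and 25 peaks. By the closest protein-coding TSS they had 40 and 23, or 25.2 per Mb (18.0 to 34.3) in 1589 kb and 28.0 per Mb (17.7 to 42.0) in 822 kb, with the genome value of 18.9 inside both intervals. Their closest peaks lay at 0.19 and −0.64 kb. Meis1 had 16 peaks, the closest at 20.0 kb, and Meis2 had 3, the closest at −0.085 kb. By the closest protein-coding TSS each of the 2 had 10. A peak at 10 kb or less was present at 9 of the 29 genes, beside the 25.4% of protein-coding genes given above.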

How the data were processed

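Per the labels and methods, the authors used Bowtie2 and mm9 for alignment, Picard 1.136 to drop duplicate reads and MACS14 to call peaks at a fixed p-value limit. Blacklisted regions were removed, and the gene with the nearest TSS was listed for each peak. The authors report replicates of Isl1 ChIP-seq and a step that found the binding areas shared by replicates. Whether the deposited list is the outcome of that step is not given in the sources used here. What was deposited is, for each peak, its position and its distance from the TSS in bp, with no signal. Distances were used as deposited and widths were end minus start. Runs of at least 25 purines or pyrimidines, repeats and motifs were read from NCBIM37 (the sequence of mm9) within 100 bp of the midpoint, and genes from GENCODE vM1, with an overlap of at least 1 bp. Python 3.11.15, pandas 2.3.3, scipy 1.17.1 and pysam 0.24.0 were used. The counting steps were tested on simulated data. Intervals are 95% Wilson or exact Poisson. The named genes were all 10 genes, each peak of each, the gene that holds each peak and a wider list of 29 genes. Sequences to show were the closest peak assigned to each gene and peaks without a run, of which some, like some genes of the wider list, are not reported here. The genes and lists were chosen with earlier results of these data known. Alternatives changed the distance limit, width, assignment, run length and window.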

Additional observations from a re-analysis of the deposited data

How the results depend on the processing

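Of 43 alternatives over the counts and the density, 28 gave a value within 1.5 times of that reported, or within its interval for the density, and 15 did not. Only peaks within 10 kb left 2 of the 10 genes, 3 peaks and 9 of the 29 wider genes. Only peaks without a run left 2 genes, 2 peaks and 7 wider genes. Of these 2 peaks, the one at Rarb had a simple repeat of CA and TA units over its centre. Peaks over a gene body or 10 kb to either side gave 4 genes and 14 peaks. A 20 kb limit raised the peaks called close from 3 to 6, the addition being Rarb and Rarg peaks. The other 6 were counts of single genes, of which Aldh1a1 (0 to 3) and Cyp26b1 (1 to 8) changed with the closest protein-coding TSS. With only peaks wider than the median, Rara and Rarg fell from 1 to 0, Rarb from 13 to 8 and Aldh1a2 from 5 to 3. A 100 kb limit gave 8 genes and 22 peaks, peaks wider than the median 7 and 21, and the closest protein-coding TSS 10 and 42. Without the 5 Rarb peaks measured from the outer start, chosen after seeing the data, 26 peaks remained. With territories from all genes the density was 15.8 per Mb. The list holds no p-value, so no stricter threshold could be tried. Width was used as a filter instead, and its relation to the strength of a peak is unknown. No paired analysis was possible because there is 1 ChIP sample. Depth is unknown, so a gene without a peak is not shown to be unbound.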

Other observations

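The 2 breakdown gene peaks that lay inside other genes were both in genes of the exocyst, Exoc6 beside Cyp26c1 and Exoc6b near Cyp26b1, which are paralogs, as are the Cyp26 genes next to them. At Cyp26c1 the peak held a run of 190 bases and at Cyp26b1 a run of 57. Of the 42 peaks whose closest protein-coding TSS was that of one of the 10 genes, 8 were closest to Cyp26b1, and none of those 8 was deposited under Cyp26b1. Peaks of the outer Rarb start would likewise be upstream peaks under GENCODE. The closest Dhrs3 peak, at −18.5 kb, also had no run (20 bases at most in its window), and its stretch of 94.2 kb held 5 peaks by the closest protein-coding TSS (9 as deposited), or 53.1 per Mb (17.2 to 124), an interval that includes the genome value of 18.9. These features were noticed after the values were seen and were not tested.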
